A study of Mus musculus with 48 samples.

Results

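Livers of male C57BL/6J mice on a high-fat diet (HFD) were compared with livers of males on a low-fat diet (LFD), where every mouse in both groups had also received a mixture of dioxin-like pollutants. The mixture was given weekly and held 10 ng/kg TCDD, 80 ng/kg PeCDF (a pentachlorodibenzofuran) and 140 ng/kg PCB126 (a coplanar polychlorinated biphenyl), and livers were taken after 12 weeks. The comparison took all 6 HFD and all 6 LFD libraries of mixture-treated males, 12 of the 48 liver poly(A) RNA libraries of the study. The other libraries came from vehicle-treated males and from females on either diet with mixture or vehicle, again 6 per group. The 12 vehicle males and the 12 mixture females of both diets enter only where diet effects are compared. Since all 12 mice carried the mixture, diet is the only labelled difference between the groups. The sources used here do not give what the diets contained, how old the mice were at the start, the route of dosing or the dates of collection. Animals are numbered within each diet, so a cohort or day shared within a diet and the diet itself cannot be told apart. The labels do not tie the 6 replicates of a group to cages or litters, and each p-value reflects only how much these livers varied.

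Dioxins and coplanar biphenyls bind the aryl hydrocarbon receptor (AhR), a ligand-activated transcription factor that pairs with ARNT and switches on Cyp1a1, Cyp1a2 and other genes of foreign-compound metabolism. A fatty liver stores triglyceride in droplets coated by CIDE and perilipin proteins, many of them encoded by targets of PPARγ, while PPARα drives fatty acid oxidation. Rodent liver is strongly sex-dimorphic: pulsed growth hormone acting through STAT5 keeps up male-typical genes such as the major urinary proteins (Mup), Hsd3b5 and Slco1a1.

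Of 49315 genes in the table, 13588 had at least 1 TPM in at least 6 of the 12 libraries and were tested on log2(TPM + 1). TPM is a length-corrected share of transcripts, scaled to a total of 1000000 in every library, so the sequencing depth is unknown, and a fold change on this scale understates that of low genes. Differences are given as HFD minus LFD in log2 units with the standard error (SE), and adjusted p-values are limma's, with Benjamini-Hochberg adjustment over all 13588 genes and a threshold of 0.05. Each library held 13255 to 14365 genes at 1 TPM or more. Hepatocyte genes were abundant in every library: the summed TPM of 19 hepatocyte core genes ran from 100452 to 128979 on HFD and from 146592 to 157781 on LFD. HFD replicate 6 stood apart, with a summed level of skeletal muscle markers of 27004 TPM against 46.7 to 102 TPM in the other HFD libraries. LFD replicate 6 held adrenal cortex markers at 110 TPM against 4.51 to 11.7 TPM in the other LFD libraries. Their part in the results was not tested beyond leaving each of them out.

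HFD was associated with a broad shift in liver transcripts. The test called 4069 genes higher (29.9%) and 891 lower (6.56%), 36.5% in either direction. TPM values depend on what the most abundant transcripts take up, and here that differed by diet: the 50 most abundant genes took 40.5 to 44.0% of TPM on HFD and 44.5 to 45.8% on LFD, and 21 Mup genes together ran from 9225 to 21502 TPM on HFD and from 25328 to 49687 TPM on LFD. A trimmed-mean scaling between libraries moved the median change over all genes from 0.15 to −0.03, a shift of 0.18 log2 units, and the calls became 1759 higher and 2185 lower (16.1%), or 29.0% of 13583 genes in either direction. The part of the abundant genes in this shift was not tested. No gene was called in opposite directions by the 2 scalings. In both, 1755 genes were higher (12.9%) and 889 were lower (6.54%), and of the 420 higher and 195 lower genes with a change of at least 1 log2 unit, 405 and 195 were called after scaling as well. Changes below are therefore read against the all-gene median of 0.15, and each gene list is given under both scalings.

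The 12 largest rises included genes of lipid droplets, of foreign-compound metabolism and of the acute phase response. Cidea, a lipid droplet protein normally abundant in brown fat, had 50.9 TPM in the lowest, 129 in the median and 160 in the highest HFD liver, against 0.257, 0.611 and 2.46 TPM on LFD. No HFD liver came near an LFD liver, and the difference was 5.87 ± 0.31 (SE), adjusted p = 3.4e-07. Cidec (chr6:113424634-113435760, GRCm38), which joins droplets into larger ones, had 81.3, 245 and 325 TPM on HFD and 4.44, 7.27 and 15.4 TPM on LFD, a difference of 4.69 ± 0.34, adjusted p = 2.89e-06. Its lowest HFD value was that of replicate 6, and the groups did not overlap. Cyp2b9 (chr7:26173411-26210661), a female-typical cytochrome P450 with the close paralog Cyp2b13, had 67.9, 132 and 233 TPM on HFD and a median of 5.77 and a highest value of 8.50 TPM on LFD (4.34 ± 0.34, adjusted p = 4.12e-06). Ly6d, a small surface antigen, ranged from 19.9 to 217 TPM on HFD and from 1.73 to 3.57 TPM on LFD (4.81 ± 0.48, adjusted p = 2.17e-05). The remaining members of the 12 largest rises were Orm3, Lcn2, Gsta1, Sprr1a, Saa2, Cfd, Raet1d and Saa1, with differences from 3.20 (Saa1) to 4.28 (Orm3). Sprr1a, at most 0.989 TPM on LFD, passed the filter through its HFD libraries alone. Gsta1 and Cidea, with LFD medians of 0.15 and 0.611 TPM, also passed mainly through theirs.

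Of the 12 largest falls, 8 were members of the male-biased gene list described below. That list, with 32 of the 13588 genes tested, was written with results of these libraries known, so the overlap is no independent evidence. Hsd3b5 (chr3:98618634-98630252), a steroid-metabolising reductase, had 138, 364 and 446 TPM as lowest, median and highest on LFD and 0.961, 1.92 and 9.63 TPM on HFD. The difference of −6.26 ± 0.44 (adjusted p = 2.83e-06) was the most negative in the named set. Serpina1e, an α1-antitrypsin paralog whose reads may be shared with its near-identical copies, had 765, 6619 and 8278 TPM on LFD and 41.5, 92.8 and 228 TPM on HFD (−5.64 ± 0.62, adjusted p = 3.88e-05). LFD replicate 2 gave its low LFD value. Cyp1a1 fell by 4.65, and Foxq1, a forkhead transcription factor, fell by 3.41 ± 0.42 (adjusted p = 8.72e-05) from 13.1 to 128 TPM on LFD to 2.86 to 5.94 TPM on HFD. Tff3, a secreted trefoil peptide, had 25.6 to 151 TPM on LFD and 5.99 to 14.9 TPM on HFD (−3.04 ± 0.40, adjusted p = 0.000145). Moxd1 ranged widely within LFD, from 1.54 to 93.8 TPM, and was at 0 to 0.318 TPM on HFD (−3.81 ± 0.78, adjusted p = 0.00246). It passed the filter through its LFD libraries alone. The others of the 12 most negative were Mup7, Mup11, Mup21, Slco1a1, C8b and Fabp5, at −4.65 to −3.07.

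**Figure D1:**
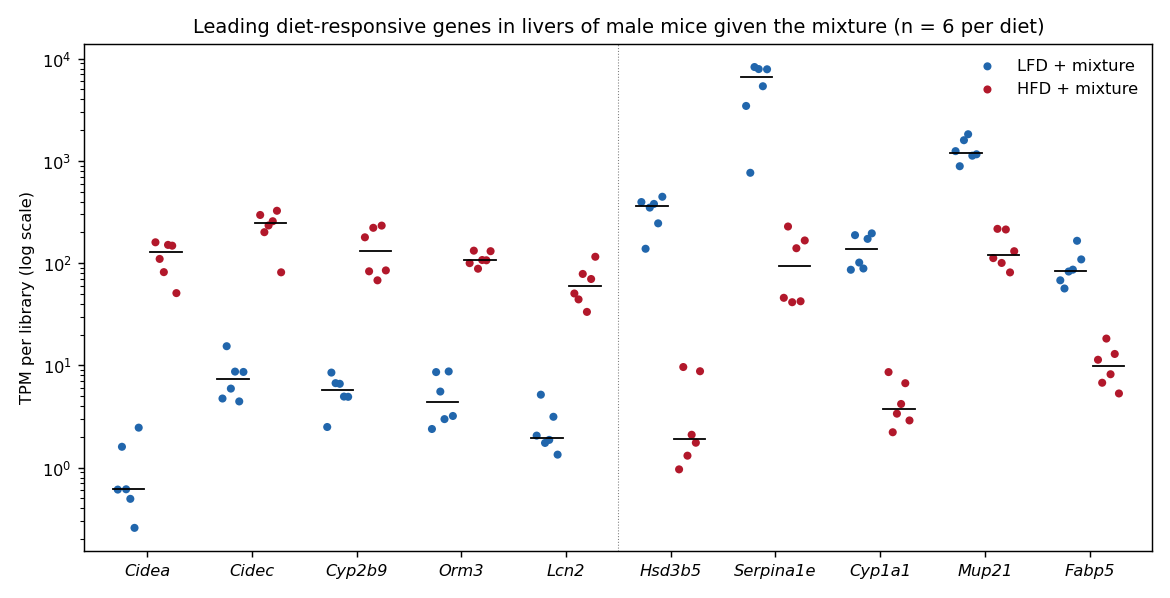
TPM per library (log axis) of 5 genes that rose and 5 that fell on HFD in males given the mixture, 6 livers per diet, blue for LFD and red for HFD, with the median as a bar. The LFD and HFD points do not overlap for any of the 10 genes; Cidea runs from 50.9 to 160 TPM on HFD and from 0.257 to 2.46 TPM on LFD.

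AhR targets did not move as a block. Of 21 listed genes, 18 were tested: 8 were higher and 3 lower (3 and 4 after scaling), with a median of 0.34 (0.13 after scaling). Of all genes, 29.9% were called higher, 6.56% lower and 36.5% either way. Over the 19 members tested together with vehicle males, the median diet effect was 0.35 with mixture and 0.43 with vehicle. Cyp1a1 (chr9:57687928-57703824), the classical AhR target, had 86.1, 137 and 195 TPM as lowest, median and highest on LFD and 2.22, 3.78 and 8.59 TPM on HFD, a difference of −4.65 ± 0.30, adjusted p = 1.46e-06. Every HFD liver was far below every LFD liver, although all 12 mice had been given the mixture. In vehicle males, Cyp1a1 ran from 1.19 to 2.17 TPM on LFD and from 0.534 to 1.14 TPM on HFD, so the mixture-treated HFD males were above their vehicle group and below the mixture-treated LFD males. Cyp1a2, the constitutive liver P450 of the same family, had 1354 to 2081 TPM on HFD and 2585 to 4006 TPM on LFD (−0.95 ± 0.13, adjusted p = 0.000216). In vehicle males Cyp1a2 was lower on HFD as well, at 230 to 422 TPM against 549 to 774 TPM on LFD. Its diet effects with mixture and with vehicle differed by 0.09 ± 0.21, which did not pass in limma's test (adjusted p = 0.96). Slc46a3, a lysosomal transporter induced by AhR ligands, had 40.4 to 62.5 TPM on HFD and 62.6 to 101 TPM on LFD (−0.64 ± 0.14, adjusted p = 0.00375).

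Other genes of the AhR battery rose on the same diet. Gsta1, a glutathione transferase whose reads may be shared with Gsta2, had 4.36 to 34.4 TPM on HFD and 0 to 1.11 TPM on LFD (3.99 ± 0.39, adjusted p = 2e-05). It passed the filter through its HFD libraries, with an LFD median of 0.15 TPM. Its call, counted here and among the NRF2 targets below, could therefore hardly have gone the other way. Nqo1, a quinone reductase, had 20.9 to 27.5 TPM on HFD and 5.28 to 12.1 TPM on LFD (1.48 ± 0.17, adjusted p = 4.76e-05). Ugdh, which makes UDP-glucuronic acid, had 63.9 to 99.6 TPM on HFD and 36.9 to 69.1 TPM on LFD (0.79 ± 0.14, adjusted p = 0.00101). These 3 calls were also made after scaling, whereas smaller rises were lost, among them Htatip2 (0.41), Cyb5a (0.35), Nfe2l2 (0.48) and Ugt1a6b (0.34), with adjusted p from 0.138 to 0.451 after scaling. The diet effects of Gsta1, Nqo1 and Ugdh differed from those in vehicle males by 0.43, −0.27 and −0.12, and none of these differences passed. The receptor itself, Ahr, had 14.0 to 20.5 TPM on HFD and 13.1 to 28.4 TPM on LFD, a difference of −0.09 that did not pass. Its partner Arnt (0.22), the feedback gene Tiparp (0.07), Ugt1a6a (0.01), Ugt1a9 (0.73), Pcp4l1 (0.69) and Xdh (−0.16) did not pass either, although Xdh did after scaling (−0.38, adjusted p = 0.0166). The Ugt1a genes share exons, and their values cannot be fully separated. Cyp1b1, Ahrr and Aldh3a1 were below the filter, with highest values of 1.55, 0.12 and 0.16 TPM.

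The promoters of 3 AhR battery genes that fell, rose and did not pass are shown to set the receptor's core motif beside these values. The motif GCGTG was searched on both strands of RefSeq windows of 300 bases around the start site (GRCm38.p6). It was found in 6 of the 13 tested battery genes that had a window (46.2%), in 54.5% of all tested genes with a window and in 35.2% of all genes of the promoter table. The 250 bases before the start site are printed in the direction of transcription, with the motif or its complement in capitals.
Cyp1a1, which fell by 4.65, chr9:57697363-57697612, plus strand: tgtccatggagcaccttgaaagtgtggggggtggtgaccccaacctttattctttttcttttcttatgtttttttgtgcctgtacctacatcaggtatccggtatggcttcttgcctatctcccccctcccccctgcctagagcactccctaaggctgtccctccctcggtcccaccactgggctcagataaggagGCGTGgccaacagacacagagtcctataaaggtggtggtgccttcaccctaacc
Ugdh, which rose by 0.79, chr5:65435843-65436092, minus strand: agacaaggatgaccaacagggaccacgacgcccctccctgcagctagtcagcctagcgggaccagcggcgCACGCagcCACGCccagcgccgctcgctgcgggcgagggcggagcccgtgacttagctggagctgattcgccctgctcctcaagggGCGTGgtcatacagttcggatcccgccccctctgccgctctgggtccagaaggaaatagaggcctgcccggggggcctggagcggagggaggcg
Tiparp, at 0.07 and not called, chr3:65528197-65528446, plus strand: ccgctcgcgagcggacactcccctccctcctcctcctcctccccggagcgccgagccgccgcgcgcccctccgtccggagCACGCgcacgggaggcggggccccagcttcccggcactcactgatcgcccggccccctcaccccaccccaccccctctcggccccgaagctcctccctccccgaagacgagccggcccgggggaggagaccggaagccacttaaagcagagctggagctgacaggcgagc
The Cyp1a1 stretch holds 1 match, the Ugdh stretch 3 and the Tiparp stretch 1, so a match stood beside a fall, a rise and a difference that did not pass.

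**Figure D2:**
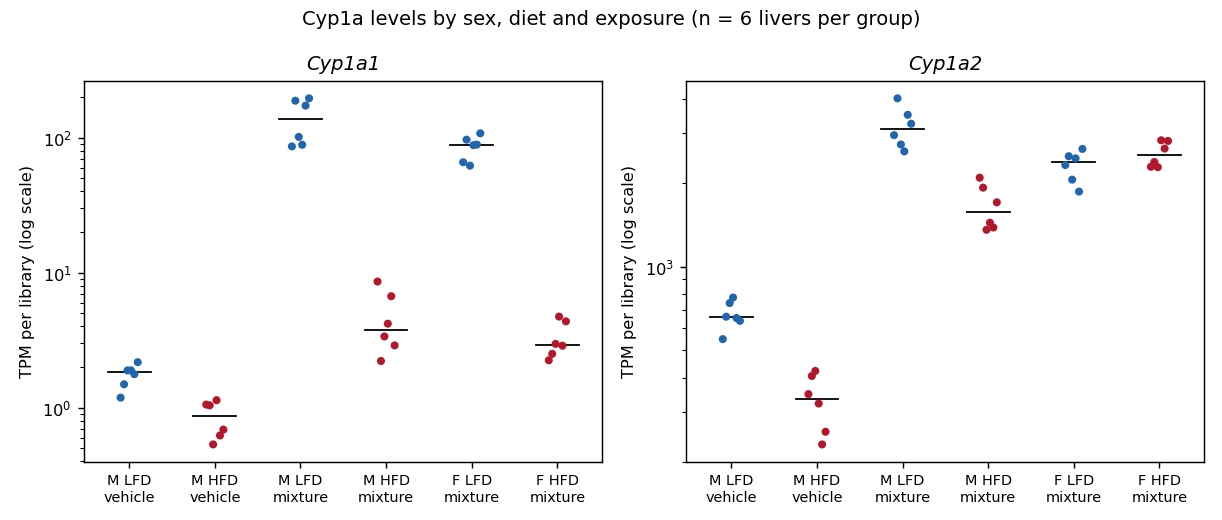
TPM per library (log axis) of Cyp1a1 and Cyp1a2 in the 4 male groups and the 2 groups of mixture-treated females, 6 livers per group, with the median as a bar. Cyp1a1 was lower on HFD than on LFD in mixture-treated males (2.22 to 8.59 against 86.1 to 195 TPM); Cyp1a2 was lower on HFD in mixture males, and its ranges overlap in mixture females.

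Targets of CAR and PXR, the receptors for many drugs, included 13 higher and 2 lower of 27 tested (11 and 3 after scaling), median 0.31 (0.10 after scaling). Cyp3a11, a main drug-metabolising P450 with close paralogs, had 670 to 1196 TPM on HFD and 131 to 346 TPM on LFD (2.32 ± 0.23, adjusted p = 1.89e-05). Cyp2b13 (2.34) and the drug efflux pump Abcb1a (1.44) rose with it. NRF2 governs antioxidant and conjugation genes, and 18 of its 25 tested targets were higher and 0 lower (15 and 1 after scaling), median 0.79. Gsta2 had 35.7 to 53.6 TPM on HFD and 6.43 to 17.0 TPM on LFD (2.05 ± 0.18, adjusted p = 9.58e-06). Ephx1, microsomal epoxide hydrolase, rose by 1.35 and Gsta4 by 1.06, each without overlap between the diets.

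Genes of lipid droplets and PPARγ rose together. Of 18 tested lipid droplet genes, 15 were higher and 0 lower (11 and 0 after scaling), median 0.78. All 9 tested PPARγ targets were higher in both scalings, with a median of 2.85; this list shares Cidea, Cidec, Plin4 and Mogat1 with the droplet list. Mogat1, a monoacylglycerol acyltransferase, had 10.9 to 22.8 TPM on HFD and 0.167 to 4.78 TPM on LFD (2.95 ± 0.32, adjusted p = 4.02e-05). Cd36, a fatty acid transporter, had 185 to 271 TPM on HFD and 18.2 to 74.1 TPM on LFD (2.85 ± 0.27, adjusted p = 1.4e-05). Fitm2, needed for droplet budding, rose by 0.92. Several of these genes are also expressed in fat cells. The fat cell markers Adipoq and Lep were at 0 to 3.70 and 0 to 0.921 TPM in the HFD libraries and at 0 to 2.83 and 0 to 0.0776 TPM in the LFD libraries. Cfd, the serum protease adipsin and another fat cell marker, was at 19.2 to 114 TPM on HFD and 0.162 to 9.30 TPM on LFD. Replicate 6 of each diet had the highest Adipoq and the highest Cfd value of its group. The part of fat cells in these rises was not tested.

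Fatty acid uptake, triglyceride and lipogenic genes were mixed. Of 18 uptake and binding genes, 9 were higher and 2 lower (7 and 3 after scaling), median 0.31. Fabp2 (1.25) and Fabp4 (2.11), both fatty acid binding proteins, rose. Fabp5, another member of that family, fell: it had 56.5 to 165 TPM on LFD and 5.31 to 18.3 TPM on HFD (−3.07 ± 0.29, adjusted p = 1.4e-05). Triglyceride synthesis had 8 higher and 1 lower of 15 (6 and 1 after scaling), with Gpat3, a glycerol phosphate acyltransferase, with a median of 14.7 TPM on HFD and 2.54 TPM on LFD and no overlap (2.23 ± 0.18, adjusted p = 4.85e-06). Gpd1, which makes glycerol phosphate, rose by 0.68, and Agpat3 by 0.37, the latter not called after scaling (adjusted p = 0.101). De novo lipogenesis had 4 higher and 1 lower of 22, and 3 higher and 6 lower after scaling, with a median of 0.01 that became −0.20. Scd1, the desaturase that makes oleate, had 11999 to 25181 TPM on HFD and 7908 to 11248 TPM on LFD (1.09 ± 0.18, adjusted p = 0.000595). Scd2 (0.77) and the lipogenic regulator Srebf1 (0.70, not called after scaling, adjusted p = 0.0636) rose, while Acss2, which activates acetate, fell by 1.32.

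**Figure D3:**
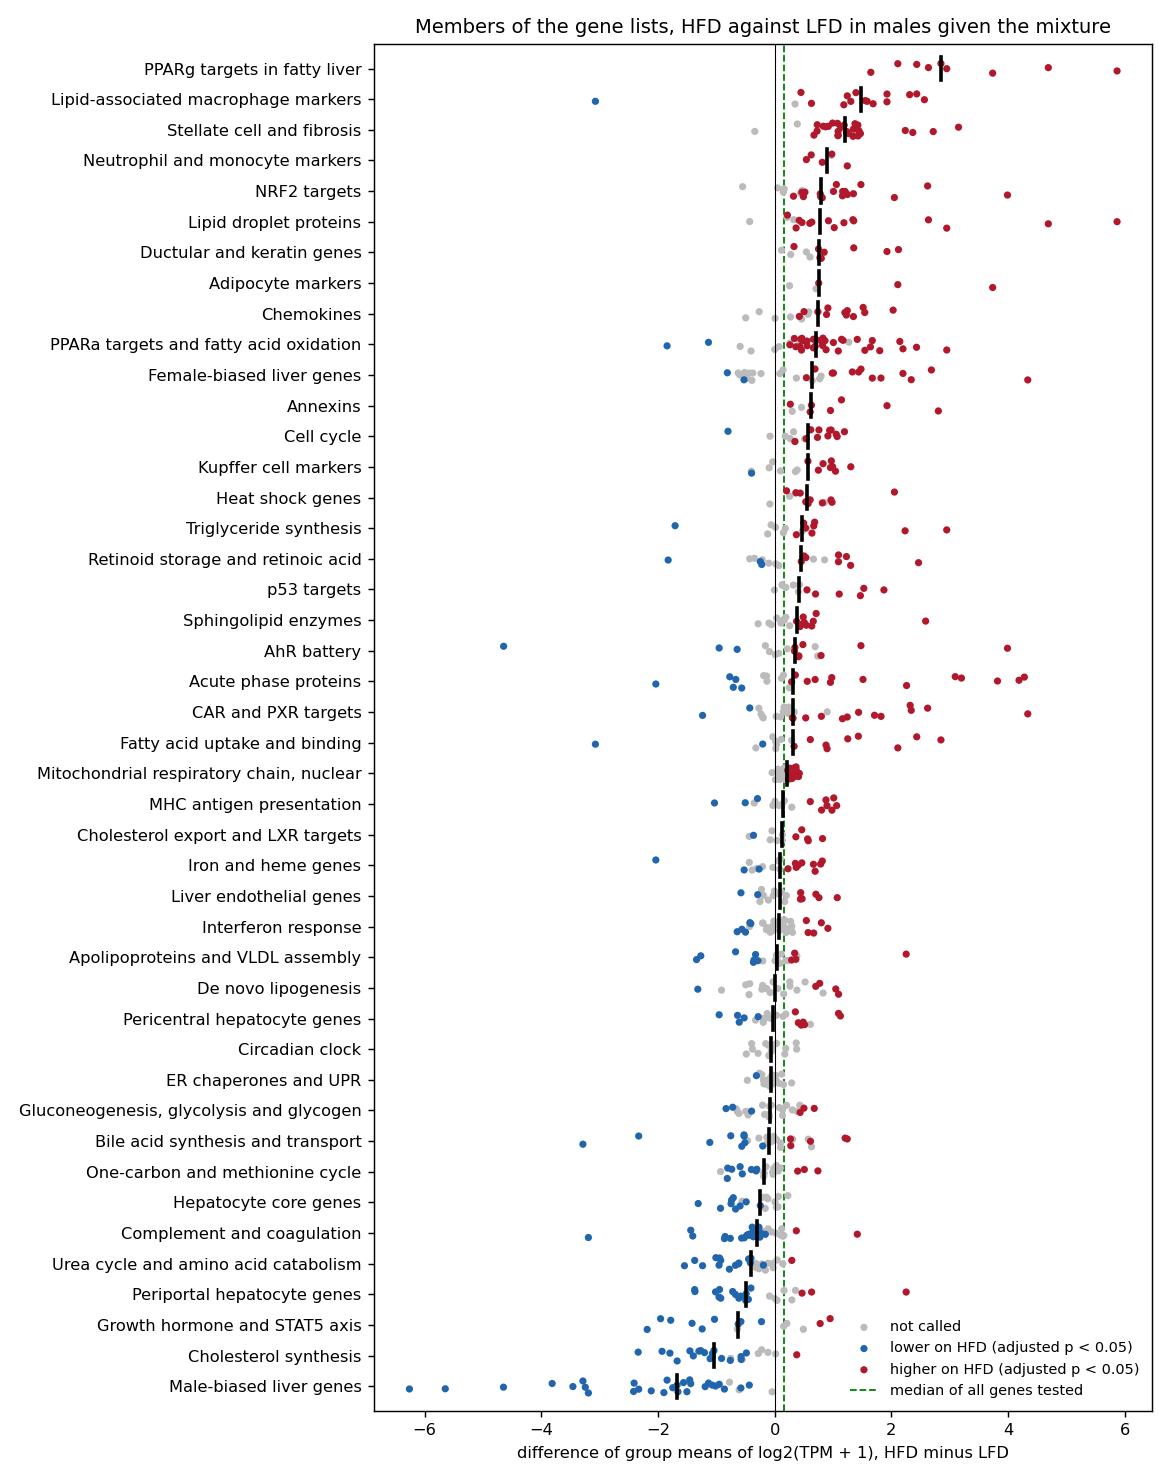
Each point is a tested member of a gene list, placed by its HFD minus LFD difference in log2(TPM + 1): red higher, blue lower, grey not called. Black bars are list medians, from 2.85 for PPARγ targets to −1.67 for male-biased genes, and the green dashed line is the median of all genes, 0.15.

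Fatty acid oxidation genes rose broadly. Of 43 tested PPARα targets and oxidation genes, 34 were higher and 2 lower (26 and 3 after scaling), median 0.70 (0.49 after scaling). Acot2, a mitochondrial acyl-CoA thioesterase, had 23.6 to 39.1 TPM on HFD and 3.61 to 8.89 TPM on LFD (2.43 ± 0.18, adjusted p = 3.3e-06). Aldh3a2, a fatty aldehyde dehydrogenase, had 388 to 564 against 117 to 213 TPM (1.80 ± 0.14, adjusted p = 5.1e-06). The peroxisomal enzyme Ehhadh rose by 1.17 and the auxiliary reductase Decr1 by 0.82, and neither overlapped between the diets. The nuclear genes of the respiratory chain were 17 higher and 0 lower of 42, but 0 higher and 1 lower after scaling. Their median of 0.22 became 0.00, and Sdhc, Ndufa10, Uqcrc2 and Uqcrfs1, at 0.34 to 0.42, all lost their calls (adjusted p from 0.132 to 0.361).

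Cholesterol synthesis fell. Of 25 tested genes, 18 were lower and 1 higher (21 and 0 after scaling), median −1.04, against 6.56% of all genes called lower. Sqle, squalene epoxidase, had 13.3, 28.6 and 37.4 TPM as lowest, median and highest on LFD and 1.62, 4.30 and 8.44 TPM on HFD (−2.34 ± 0.33, adjusted p = 0.000215). Tm7sf2, a sterol reductase, had 65.0 to 101 TPM on LFD and 23.8 to 33.4 TPM on HFD (−1.45 ± 0.10, adjusted p = 2.83e-06). Idi1, of the isoprenoid pathway, fell by 1.80 and Stard4, a cholesterol carrier, by 1.11. HFD replicate 6, the library with muscle transcripts, had the lowest mean level of the list (4.14 against a group median of 5.00 on log2(TPM + 1)). Without it, 16 of the 18 genes were called lower.

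Bile acid genes were divided: 5 were higher and 9 lower of 28 (3 and 13 after scaling), median −0.09. Slco1a1, an organic anion uptake carrier, had 138 to 297 TPM on LFD and 6.49 to 51.6 TPM on HFD (−3.29 ± 0.43, adjusted p = 0.000135), and Slc10a1, the sodium-dependent carrier, had 927 to 1263 against 423 to 545 TPM (−1.11 ± 0.09, adjusted p = 5.1e-06). Cyp7b1, an oxysterol hydroxylase with male-biased expression, fell by 2.33 ± 0.30 (adjusted p = 0.000116). Abcc4, an efflux pump of the blood side, rose by 1.21, from 0.573 to 1.61 TPM on LFD to 2.52 to 4.97 TPM on HFD.

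Male-biased liver genes had the most negative median of the lists described, −1.67 (−1.86 after scaling). Of 32 tested, 29 were lower and 0 higher in both scalings, and for 18 no HFD liver reached the lowest LFD liver, against 2.72% of all genes. This list was written with results of these libraries known, so its direction is no independent evidence. Mup21 had 887, 1203 and 1822 TPM on LFD and 81.1, 121 and 216 TPM on HFD (−3.25 ± 0.25, adjusted p = 3.89e-06). Susd4, a complement regulator, had 19.6 to 29.0 against 3.96 to 9.14 TPM (−1.90 ± 0.16, adjusted p = 5.82e-06). Mup7 varied widely on HFD, from 23.7 to 1311 TPM, against 2303 to 5982 TPM on LFD (−4.65 ± 0.97, adjusted p = 0.00275). Mup genes are near-identical copies, so values of single Mup genes are uncertain, whereas their sum did not overlap between the diets. Of 29 tested female-biased genes, 13 were higher and 2 lower (11 and 4 after scaling), median 0.64. Cyp2b10 (1.82) and Rtn4, a membrane-shaping protein (1.33), rose with the Cyp2b genes. Within HFD the mean level of the male-biased list ran from 4.81 to 6.42 on log2(TPM + 1), against 6.90 to 8.16 on LFD.

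Genes of growth hormone signalling fell more often than they rose: 9 lower and 2 higher of 15 in both scalings, median −0.63. Onecut1, a transcription factor, had 7.57 to 30.5 TPM on LFD and 2.70 to 9.71 TPM on HFD (−1.96 ± 0.32, adjusted p = 0.000527). Igf1, the circulating mediator of growth hormone, had 99.2 to 148 against 69.9 to 92.5 TPM (−0.58 ± 0.09, adjusted p = 0.000465). Serpina3k, a serine protease inhibitor, fell by 1.42, and Stat5a rose by 0.78.

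**Figure D4:**
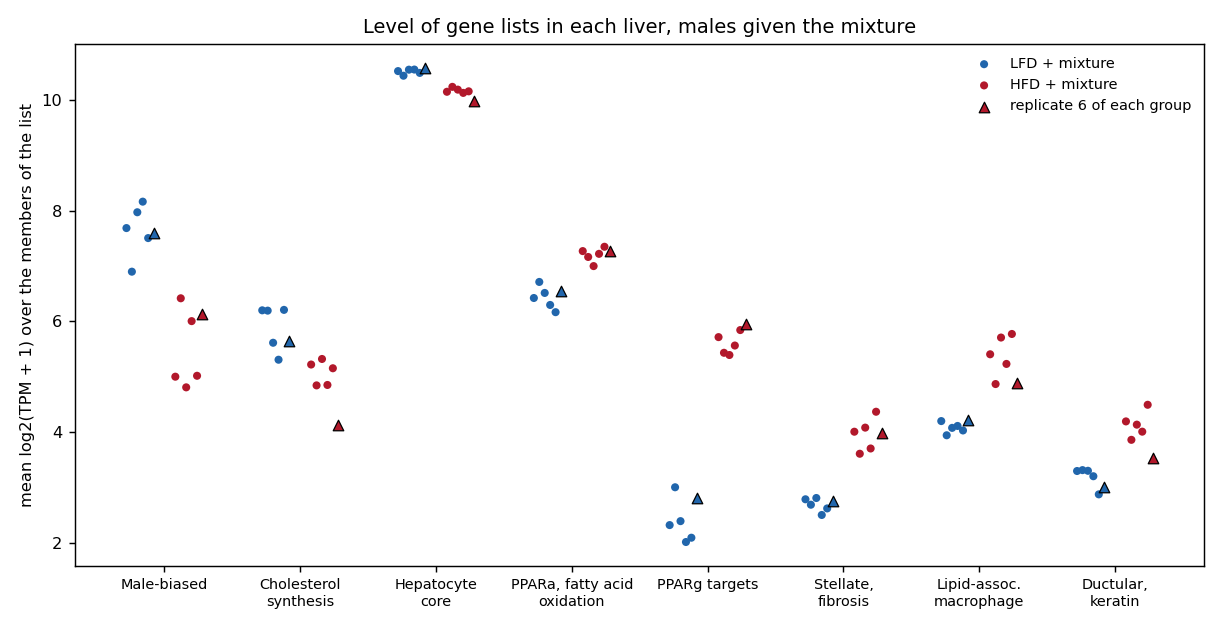
Mean log2(TPM + 1) over the members of 8 lists in each liver of mixture-treated males, LFD in blue and HFD in red, with replicate 6 of each group as a triangle. The male-biased list runs from 4.81 to 6.42 on HFD and from 6.90 to 8.16 on LFD, and the stellate list from 3.61 to 4.37 on HFD, above the highest LFD liver at 2.81.

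Hepatocytes near the portal vein specialise in urea and amino acid handling, and those near the central vein in drug metabolism. Periportal genes were 14 lower and 3 higher of 23 (15 and 1 after scaling), median −0.49. Pericentral genes were 7 higher and 5 lower of 22 (2 and 6 after scaling), median −0.02. Their share of higher calls was near the 29.9% of all genes, of which 6.56% were called lower. Urea cycle and amino acid genes, which overlap with the periportal list, were 15 lower and 1 higher of 28 (23 and 0 after scaling), median −0.40. Cps1, the entry enzyme of the urea cycle, had 1041 to 2427 TPM on LFD and 595 to 1004 TPM on HFD (−1.37 ± 0.20, adjusted p = 0.000228), and Ass1 had 2689 to 4632 against 1465 to 2086 TPM (−0.95 ± 0.12, adjusted p = 0.000128). Gls2, liver glutaminase, fell by 0.92. Among pericentral genes, Aldh1a1, a retinal dehydrogenase, rose by 1.09, and Gulo, of vitamin C synthesis, fell by 0.61.

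One-carbon and methionine genes had 8 lower and 3 higher of 23 (12 and 0 after scaling), median −0.18. Gnmt, the methyl sink of the liver, had 2772 to 3754 TPM on LFD and 1383 to 2335 TPM on HFD (−0.81 ± 0.12, adjusted p = 0.000286). Cbs (−0.81), Aldh1l1 (−0.59) and the phospholipid methyltransferase Pemt (−0.40) fell too. Gluconeogenic, glycolytic and glycogen genes were 3 higher and 3 lower of 25 (1 and 6 after scaling). Pck1, the key gluconeogenic enzyme, had 1855 to 3927 TPM on LFD and 1501 to 2824 TPM on HFD (−0.72 ± 0.20, adjusted p = 0.0151). Gbe1, glycogen branching enzyme, rose by 0.68, and the rises of Pcx (0.50) and Pfkl (0.44) were not called after scaling (adjusted p = 0.0906 and 0.113).

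Hepatocyte core and complement genes were lower more often than higher, and apolipoprotein and acute phase genes were divided. In a whole liver, fewer hepatocytes and less RNA per hepatocyte cannot be told apart. Hepatocyte core genes were 9 lower and 0 higher of 19 (13 and 0 after scaling), median −0.25. Ahsg, fetuin A, had 7735 to 11102 TPM on LFD and 5374 to 6168 TPM on HFD (−0.75 ± 0.09, adjusted p = 9.31e-05). Fgb, of fibrinogen, fell by 0.71, and the α1-antitrypsin paralogs Serpina1a and Serpina1c by 0.93 and 1.31. Complement and coagulation genes were 20 lower and 2 higher of 32 (24 and 1 after scaling), median −0.31. F11, coagulation factor XI, had 88.6 to 122 TPM on LFD and 36.3 to 40.7 TPM on HFD (−1.40 ± 0.08, adjusted p = 9.32e-07). F10 (−0.52), C1ra (−0.76) and C8b (−3.19) fell, while C5ar1, a receptor of myeloid cells in the same list, rose by 1.42. Apolipoprotein and VLDL genes were 4 higher and 7 lower of 20 (1 and 8 after scaling). Apoa4 had 1530 to 8634 TPM on HFD, the lowest in replicate 6, and 735 to 2522 TPM on LFD (2.25 ± 0.42, adjusted p = 0.00123). Apom, which carries sphingosine phosphate on HDL, fell by 1.34, Apoa1 by 0.67 and Apoh by 0.35.

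Acute phase proteins were 13 higher and 5 lower of 24 (9 and 7 after scaling), median 0.32. Orm3, an α1-acid glycoprotein with close paralogs, had 88.1, 107 and 132 TPM on HFD and 2.39, 4.37 and 8.72 TPM on LFD (4.28 ± 0.25, adjusted p = 9.32e-07), and Orm2 rose by 3.09. Lcn2, an iron-siderophore binding protein, had 33.3 to 115 against 1.34 to 5.17 TPM (4.19 ± 0.29, adjusted p = 2.83e-06). Saa1 and Saa2, serum amyloid A, reached 2422 and 2018 TPM in HFD replicate 6. Saa1 had a median of 181 TPM on HFD and of 29.5 TPM on LFD, and Saa2 of 118 and 12.1 TPM. Hamp, the iron hormone hepcidin, went the other way, from 4225 to 7173 TPM on LFD to 813 to 2225 TPM on HFD (−2.04 ± 0.22, adjusted p = 3.68e-05).

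Genes of matrix-producing cells rose. Of 30 tested stellate cell and fibrosis genes, 27 were higher and 0 lower (27 and 1 after scaling), median 1.21 (1.01 after scaling), and for 26 no LFD liver reached the lowest HFD liver, against 14.3% of all genes. Col1a1 (chr11:94936224-94953042), a chain of type I collagen, had 22.2, 44.7 and 90.8 TPM on HFD and 2.61, 4.07 and 4.74 TPM on LFD (3.15 ± 0.30, adjusted p = 1.72e-05). Col3a1 had 27.5 to 84.1 against 3.98 to 8.29 TPM (2.72 ± 0.25, adjusted p = 1.18e-05), Col1a2 rose by 2.37 and Col6a1 by 1.43. Muscle tissue also expresses collagens, and without HFD replicate 6 the count was again 27 higher and 0 lower, with a median of 1.15. More stellate cells and more RNA per stellate cell cannot be told apart.

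Macrophage and chemokine genes were higher more often than lower in both scalings. Without scaling so were all genes, of which 29.9% were called higher and 6.56% lower. After scaling, all genes were lower more often than higher, with 1759 of 13583 called higher and 2185 lower. Kupffer cell markers, of the resident liver macrophage, were 8 higher and 1 lower of 15 (7 and 2 after scaling), median 0.57. Their summed level was 614 to 1036 TPM on HFD and 358 to 664 TPM on LFD. Of the 15 differences, 11 were positive and 4 negative, so the members named next, which all rose, do not stand for the whole list. Cd68, a lysosomal macrophage protein, had 18.4 to 42.5 against 8.14 to 14.9 TPM (1.30 ± 0.19, adjusted p = 0.000225), and C1qa, C1qb and C1qc rose by 0.83 to 0.99. Lipid-associated macrophage markers were 14 higher and 1 lower of 16 in both scalings, median 1.47; their summed level was 1484 to 2658 TPM on HFD and 848 to 999 TPM on LFD. Cd63, a tetraspanin of lysosomes, had 40.3 to 171 against 9.22 to 19.1 TPM (2.57 ± 0.29, adjusted p = 4.79e-05), and Ctsd, cathepsin D, rose by 0.63. The member that fell was Fabp5, given above. Trem2 and Gpnmb, defining markers of these cells, missed the filter because HFD replicate 6 was below 1 TPM: Trem2 was at 0.570 to 4.04 TPM on HFD and at 0.144 to 0.545 TPM on LFD, and Gpnmb at 0.949 to 13.6 TPM on HFD and at 0.115 to 0.243 TPM on LFD. For both, every HFD liver was above every LFD liver.

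Chemokines and their receptors were 12 higher and 0 lower of 19 (9 and 1 after scaling), median 0.74. Cxcl14 had 6.14 to 11.6 TPM on HFD and 1.28 to 2.49 TPM on LFD (1.54 ± 0.16, adjusted p = 2.18e-05). Ccr2, the receptor of inflammatory monocytes, rose by 1.24 and Ccl6 by 1.35. Ccl7 was low, at 1.01 to 2.03 TPM on HFD and 0 to 0.180 TPM on LFD (1.20, adjusted p = 3.15e-05), and was below the filter after scaling. It passed the filter through its HFD libraries alone, so its call, among the 12 higher, could hardly have gone the other way. Of 15 listed neutrophil and monocyte markers, 6 were tested. Of these, 5 were higher and 0 lower (4 and 0 after scaling), among them Plac8 (0.82), Itgal (0.63) and Csf3r (0.54), against 29.9% of all genes called higher. Ly6g, Retnlg, Cxcr2, Mmp8, Mmp9, Camp, Ngp, Ly6c2 and Itgam were not tested, so the count does not cover these markers. Interferon response genes were 5 higher and 5 lower of 34 (4 and 9 after scaling), median 0.07: Gbp2 (0.80) and Ifit2 (0.67) rose, and Mx2 (−0.56) and Iigp1 (−0.43) fell.

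Ductular and keratin genes were 8 higher and 0 lower of 12 tested (7 and 0 after scaling), median 0.76. Krt8, a keratin of hepatocytes and duct cells, had 429 to 727 TPM on HFD and 188 to 303 TPM on LFD (1.35 ± 0.14, adjusted p = 2.26e-05). Its partner Krt18 rose by 0.77 and Krt23 by 2.12. Spp1, osteopontin, reached 500 TPM on HFD and 62.8 TPM on LFD, with medians of 227 and 50.6 TPM (1.92 ± 0.39, adjusted p = 0.00216). Krt7, a keratin of bile duct cells, was at most 1.23 TPM in any of the 12 libraries and was not tested. Endothelial genes were 6 higher and 2 lower of 18 (3 and 4 after scaling), median 0.09, a share of higher calls near the 29.9% of all genes. Pecam1 (0.71), Vwf (0.76) and Lyve1 (1.07) rose, and Dnase1l3, a nuclease of sinusoidal endothelium and macrophages, fell by 0.58.

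Among stress and growth genes, heat shock genes were 10 higher and 0 lower of 14 (5 and 1 after scaling), median 0.55. Hspb1 had 84.8 to 103 TPM on HFD and 15.1 to 30.8 TPM on LFD (2.05 ± 0.14, adjusted p = 2.64e-06). Hsp90aa1 (0.98) and Hspa4l (0.57) rose, and the call of Hsp90ab1 (0.44) was lost after scaling (adjusted p = 0.0617). Chaperones of the endoplasmic reticulum were 1 lower and 0 higher of 21 (7 and 0 after scaling). The single call was Xbp1 (−0.31 ± 0.11, adjusted p = 0.0389), which was lost when any of 8 libraries was left out (adjusted p from 0.053 to 0.085 without each). Of the other members named, Creld2 was at 0.29, Ern1 at −0.47 and Atf6 at −0.22; none passed, although Ern1 (−0.67, adjusted p = 0.00848) and Atf6 (−0.43, adjusted p = 0.015) did after scaling. p53 targets were 6 higher and 0 lower of 13 in both scalings: Cdkn1a, the cell cycle inhibitor p21, had 9.25 to 38.8 against 2.46 to 11.9 TPM (1.87 ± 0.38, adjusted p = 0.0021), Gdf15 rose by 1.47, Aen by 0.70 and Zmat3 by 0.55.

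Of 24 listed cell cycle genes, 18 were tested: 11 were higher and 1 lower (7 and 1 after scaling), median 0.58. Mki67, Top2a, Ccna2, Ccnb1, Aurkb and Bub1 were below the filter, so the count does not cover them. The replication licensing genes Mcm2 (1.20), Mcm4 (1.05), Mcm5 (0.97) and Mcm6 (1.07) rose from low levels, Mcm4 for example from 2.07 to 2.84 TPM on LFD to 4.38 to 7.37 TPM on HFD. Of 16 circadian clock genes, 0 passed in limma's test (0 higher and 2 lower after scaling). Cry2 (−0.28), Per2 (0.38) and Bhlhe41 (−0.49) were among the members with the smallest p-values, and Cry2 was 1 of the 2 called lower after scaling (−0.49, adjusted p = 0.0139).

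Whether the diet effect depended on the mixture was tested against the 12 vehicle males, on 14653 genes. A single gene passed (0.00682%), with 1050 at an unadjusted p under 0.05. That gene was Cyp1a1, whose diet effect was −4.65 with mixture and −0.57 with vehicle, a difference of −4.08 ± 0.33 (adjusted p = 2.03e-07). With all 48 libraries in the fit, 2 differences passed in each direction. For other leading genes, the difference of diet effects (mixture minus vehicle) was 0.24 ± 0.50 for Cidea, −0.55 ± 0.94 for Hsd3b5, 0.95 ± 0.35 for Col1a1 (adjusted p = 0.565) and 1.52 ± 0.46 for Lcn2 (adjusted p = 0.47). Median diet effects with mixture and with vehicle were −1.66 and −1.57 for male-biased genes, 2.85 and 2.97 for PPARγ targets, 1.21 and 0.68 for stellate genes and 0.31 and 0.84 for CAR and PXR targets. None of these lists held a member that passed, and with SEs of this size a difference of the diet effects in single genes may have gone undetected.

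The diet effect did differ from that in mixture-treated females. Of 14802 genes tested, 1782 had a higher diet effect in males (12.0%) and 562 a lower one (3.8%), and after scaling 706 (4.77%) and 1199 (8.11%). A female LFD library, replicate 3, held muscle, adrenal and fat transcripts, and without it, an alternative chosen after seeing the data, the counts were 1504 and 535. Male-biased genes had 28 of 32 lower and 0 higher in both scalings, with a median diet effect of −1.67 in males and 0.16 in females. On LFD, the list's mean log2(TPM + 1) had a median of 3.60 in females and 7.64 in males, so females had little room to fall. With the list also written when results of these libraries were known, its count is no independent evidence of a difference between the sexes. Hsd3b5 was at 1.67 to 8.48 TPM on LFD and at 0 to 1.13 TPM on HFD in females, and its diet effects differed by −5.04 ± 0.56 (adjusted p = 6.33e-06). Stellate genes had 25 of 30 higher and 0 lower (23 and 0 after scaling), with medians of 1.21 in males and 0.01 in females. Col1a1 was at 7.94 to 27.0 TPM on HFD and at 3.04 to 12.2 TPM on LFD in females (difference 2.26 ± 0.45, adjusted p = 0.00173).

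Lipid droplet genes had 10 of 18 higher and 0 lower (9 and 0 after scaling) in that comparison of the sexes, and PPARα genes 28 of 43 higher and 2 lower (13 and 2 after scaling). These counts, and that of stellate genes, include female LFD replicate 3. Its mean log2(TPM + 1) was its group's highest for lipid droplet (5.67, group median 5.07) and stellate genes (3.65, median 3.18). For PPARα genes it was the lowest (6.80, median 6.97). List counts without that library were not made. Cidea was at 0 to 1.40 TPM in HFD females and gave the largest difference, 6.88 ± 0.95 (adjusted p = 5.44e-05); its highest LFD value in females, 66.9 TPM, was that of replicate 3, and without that library the difference was 5.95. Cyp2b9 was at 508 to 816 TPM in females of both diets, above every male. Cdkn1a moved in opposite directions, 1.87 in males and −1.85 in females (difference 3.73 ± 0.45, adjusted p = 1.46e-05). Cyp7b1 did too, at −2.33 and 1.11, and Slc46a3 at −0.64 and 0.65. Car3, a carbonic anhydrase, was at 0.25 in males and 2.41 in females (difference −2.15 ± 0.22, adjusted p = 1.5e-06). Cyp1a2 differed by −1.10 ± 0.17 (adjusted p = 0.00019), with no called change in females. For Cyp1a1, Fabp5 and Sqle the differences did not pass, at −0.31 ± 0.36, 0.42 ± 0.45 and 0.08 ± 0.54, and each of these genes fell in both sexes (−4.33, −3.49 and −2.42 in females). Of 208 genes that the naming rule gave over all lists examined, lists not described here included, 99 passed this test, 64 with a higher and 35 with a lower diet effect in males.

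**Figure D5:**
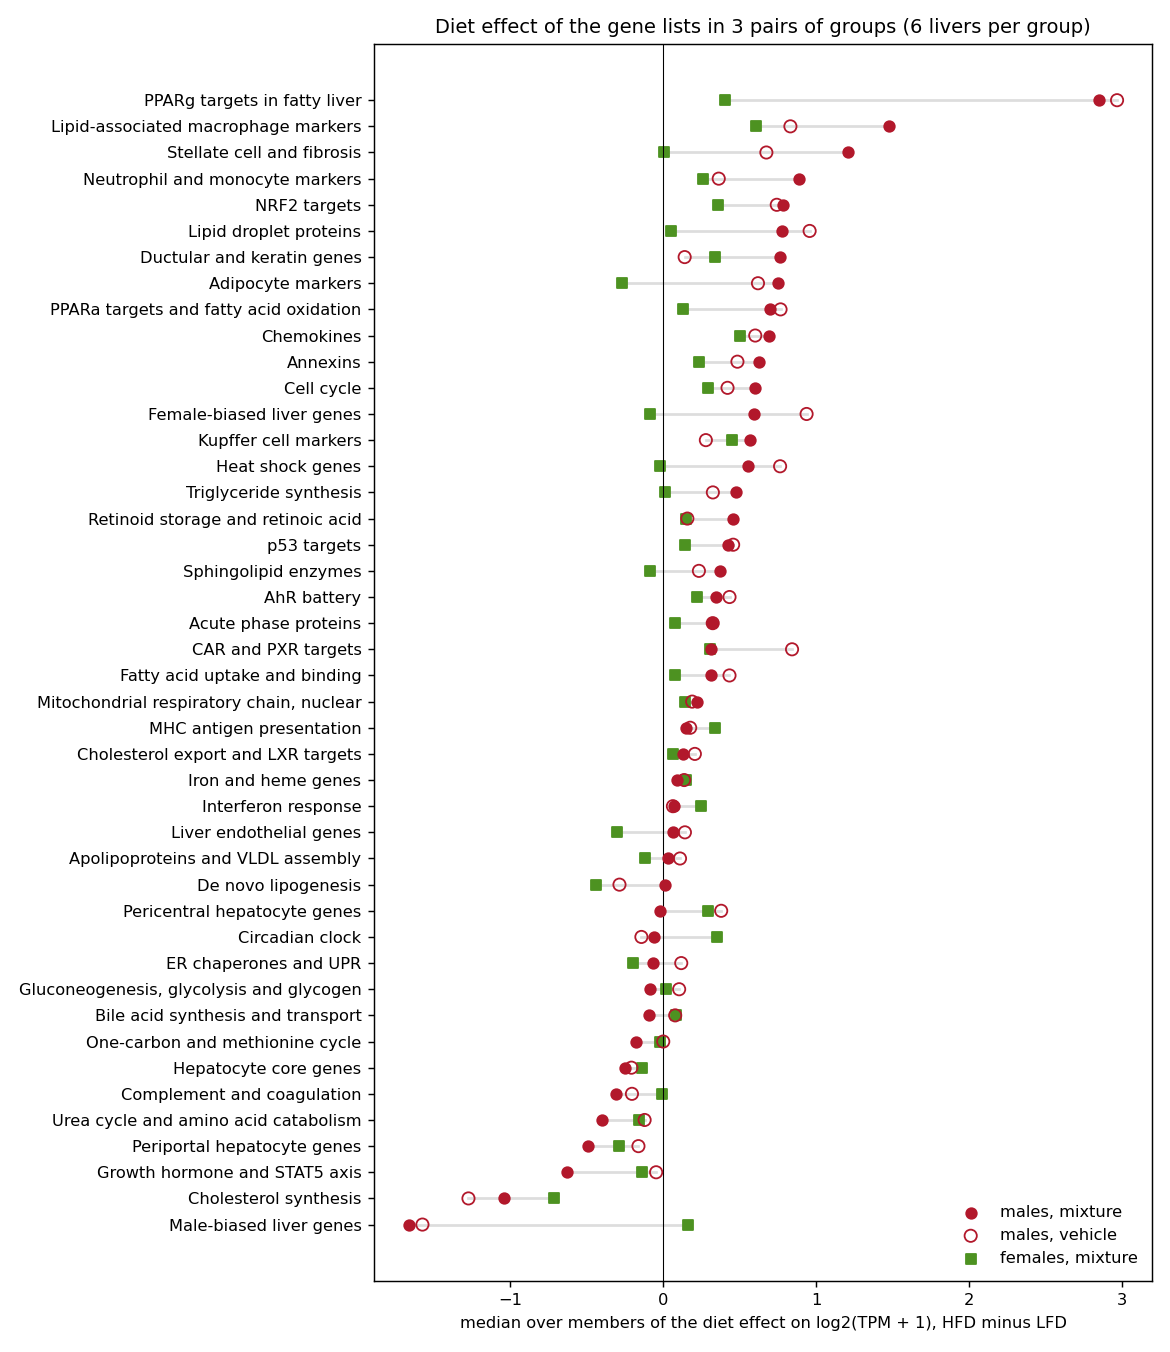
Median over the members of each list of the HFD minus LFD effect on log2(TPM + 1) in mixture males (filled circles), vehicle males (open circles) and mixture females (squares), 6 livers per group. Male-biased genes are at −1.66 and −1.57 in the 2 male comparisons and at 0.16 in females, and stellate genes at 1.21, 0.68 and 0.01.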

How the data were processed

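Liver poly(A) RNA of 48 mice was measured in 8 groups of 6, and the 12 mixture-treated males were compared by diet. The authors deposited TPM values per gene in a single table; every column sums to 1000000, and 14110 of the 49315 genes are 0 in all 48 libraries. Per the submitters' processing notes, Trimmomatic 0.36, STAR 2.5.2b, FastQC, DESeq2 and GRCm38 were used; no source used here gives the read counter, its annotation or its use of strand, so reads of overlapping, antisense and near-identical genes cannot be told apart. TPM carries no depth, so no count test, interval from counts or detection floor was computed.

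limma 3.58.1 (R 4.3.3, empirical Bayes with a mean trend) was run on log2(TPM + 1) of the genes that reached 1 TPM in 6 or more of the libraries fitted, with Benjamini-Hochberg adjustment over all genes and a threshold of 0.05. Diet effects were compared by an interaction contrast over 24 libraries. Trimmed-mean scaling trimmed 30% of log ratios and 5% of abundances; other alternatives were no filter, a filter at 5 TPM, a pseudocount of 0.1, a replicate block, all 48 libraries and leaving out each library. The fit was tested on simulated data. Replicate numbers did not pair the samples (correlations of deviations from −0.06 to 0.15), so the block is not the main fit. Gene coordinates are GENCODE M21 (13562 genes matched), and promoter windows are RefSeq's.

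Genes were named by rule: the 12 largest rises and 12 largest falls among called genes that averaged 5 TPM or more in whichever diet was higher, predicted genes left out; the 4 members of each list with the smallest p and all AhR battery members; and the 6 largest differences of diet effects each way. A few genes that meet the rule are not reported here. Adipoq, Lep, Trem2, Gpnmb, Krt7 and Plin4 were named after their values were seen. The comparison, the lists and the rules were chosen with earlier results of these data known.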

Additional observations from a re-analysis of the deposited data

Results flagged for a closer look

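Single livers stood far from the other 5 of their group in 26 of 390 groups of 6 values examined, by Dixon's test with a critical value of 0.625; chance alone flags about 1 in 20 such groups. HFD replicate 6 gave 11 of them. It was highest for the summed skeletal muscle markers (27003.9 TPM), Saa1 (2422.37 TPM), Saa2 (2018.2 TPM), Pcp4l1 (28.6199 TPM), Sdhc (158.753 TPM) and Ndufa10 (134.81 TPM), and lowest for Cidec (81.276 TPM), Ephx1 (526.283 TPM), Idi1 (2.721 TPM), Gbe1 (78.0557 TPM) and Apoa4 (1530.36 TPM). LFD replicate 2 gave 7: it was lowest for Serpina1e (764.732 TPM), C8b (157.541 TPM), Serpina3k (6550.88 TPM), Cps1 (1041.33 TPM) and Gls2 (193.96 TPM), and highest for Cyb5a (1019.53 TPM) and Acot2 (8.893 TPM). HFD replicate 2 was highest for Onecut1 (9.7083 TPM) and Car3 (2246.36 TPM) and lowest for Hp (4082.51 TPM), and HFD replicate 4 was lowest for Ugt1a6a (10.7579 TPM) and Atf6 (15.9543 TPM). LFD replicate 4 was lowest for Col1a1 (2.6103 TPM), LFD replicate 5 highest for Aldh1l1 (1102.23 TPM) and LFD replicate 6 highest for the summed adrenal cortex markers (109.544 TPM).

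Diet effects that differed between groups by the test of the difference were 1 lower effect against vehicle males, that of Cyp1a1 (−4.08), and 1782 higher and 562 lower effects against mixture females. The named differences from females were 6.88 for Cidea, 4.28 for Cidec, 4.09 for Cyp2b9, 4.00 for Cfd (2.96 without female LFD replicate 3), 3.73 for Cdkn1a and 3.60 for Ly6d, and −5.04 for Mup7, −5.04 for Hsd3b5, −4.69 for Serpina1e, −4.66 for Mup11, −3.85 for Moxd1 and −3.76 for Mup17. Mup17 moved in opposite directions, at −1.75 in males and 2.01 in females, and its level in females was 137 to 222 TPM on HFD and 11.9 to 96.1 TPM on LFD.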

How the results depend on the processing

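Of 182 genes named from the lists described here, 167 were called, and none of these changed sign in any of the 18 alternatives in which it was tested. Of the 167, 131 were tested and kept their call in all 18, and 19 kept it in each in which they passed the filter; 15 lost it after trimmed-mean scaling, and 2, Ugt1a6b and Xbp1, when single libraries were left out and also without the filter (adjusted p = 0.0994 and 0.0769). Ugt1a6b, at an adjusted p of 0.0499, lost it as well with the pseudocount of 0.1 and the block. With scaling, 1759 genes were higher and 2185 lower on HFD, and the comparison with females gave 706 and 1199; the cause was not tested. With all 48 libraries, the comparison with vehicle males gave 2 higher and 2 lower. Leaving out each of the 12 libraries gave 3265 to 4172 genes higher and 723 to 913 lower, and without HFD replicate 6 the comparison with females gave 2094 and 576. The replicate block gave 3676 higher and 804 lower; the numbers do not pair the animals, and 2 of 6 HFD libraries correlated best with the LFD library of their own number. With it, the call of Pck1 was lost (adjusted p = 0.0583). Changes of sign were limited to genes that were not called. Leaving out single libraries, Ahr ran from −0.16 (without HFD replicate 1) to 0.052 (without LFD replicate 5), Tiparp from −0.031 to 0.18 (without LFD replicates 3 and 5) and Ugt1a6a from −0.054 to 0.079 (without LFD replicate 5 and HFD replicate 4). With scaling, Tiparp was at −0.11 and Ugt1a6a at −0.19. Depth is unknown in these values, so its limits cannot be given.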

Other observations

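Lists outside the groups above, among them membrane and iron genes, were also counted in the mixture-treated males. Each count here and in the next paragraph is to be read against all genes, of which 29.9% were called higher and 6.56% lower. After scaling, 1759 of 13583 genes were called higher and 2185 lower. Of 9 annexins, calcium-dependent membrane binding proteins, 7 were higher and 0 lower (6 and 0 after scaling), median 0.63. Anxa2 had 30.5 to 96.9 TPM on HFD and 7.02 to 9.06 TPM on LFD (2.80 ± 0.23, adjusted p = 5.5e-06), and Anxa5 196 to 673 against 87.6 to 158 TPM (1.92 ± 0.25, adjusted p = 0.000135). Of 19 sphingolipid enzymes, 10 were higher and 0 lower (6 and 1 after scaling), with Smpd3, a neutral sphingomyelinase, at 9.19 to 21.9 against 0.920 to 2.83 TPM (2.59 ± 0.21, adjusted p = 5.5e-06). Iron and heme genes were 9 higher and 3 lower of 20 (4 and 5 after scaling), with a median of 0.09, below the all-gene median of 0.15. Besides the fall of Hamp, Fth1, ferritin heavy chain, had 4652 to 6151 TPM on HFD and 2829 to 4698 TPM on LFD (0.79 ± 0.12, adjusted p = 0.000403), and Slc39a14, a zinc and iron importer, fell by 0.52.

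Of 19 retinoid genes, 8 were higher and 3 lower (7 and 4 after scaling), with Rarb, a retinoic acid receptor, at 3.90 to 6.76 against 1.14 to 2.57 TPM (1.09 ± 0.15, adjusted p = 0.000163) and Aldh1a7 at 1.30. Antigen presentation was divided: 7 of 18 genes were higher and 3 lower (6 and 4 after scaling), the class II genes H2-Aa (1.01), H2-Eb1 (1.06) and H2-DMa (0.98) having risen while the class I gene H2-Q7 fell from 50.3 to 79.5 TPM on LFD to 26.7 to 38.7 TPM on HFD (−1.03 ± 0.13, adjusted p = 9.62e-05). Of 12 cholesterol export genes, 5 were higher and 1 lower (3 and 3 after scaling): Abcg5, which sends sterols into bile, rose by 0.58 and Abcg1 by 0.82, and Lcat, the plasma enzyme that esterifies cholesterol, fell by 0.36.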
